A study of Mus musculus with 16 samples.

Results

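The genes described here encode the machinery that brings proteins made in the cytosol into mitochondria. They were taken as every row of the count table whose symbol begins with Timm or Tomm followed by a digit, together with Pam16, Dnajc19, Grpel1, Hspa9, Hspd1 and Hspe1, with pseudogenes left out. This gave 32 genes of the 38924 in the table, of which 31 code for protein and 1, Tomm6os, is an antisense transcript. RNA had been sequenced from whole interscapular brown fat of C57BL/6J mice, and each of the 4 groups held 4 libraries. The groups were mice lacking Akt2 in brown fat (KO) kept at 22 °C, wild-type littermates (WT) kept at 22 °C, KO mice kept at 30 °C and WT mice kept at 30 °C. All mice spent 4 weeks, between 9 and 13 weeks of age, at their temperature. For mice 30 °C is thermoneutral, and 22 °C is a mild cold that makes brown fat produce heat. The knockout was made with UCP1-CreER, a Cre recombinase that tamoxifen activates in cells using the Ucp1 promoter, so other cells of the tissue kept Akt2, and the induction schedule, and whether the WT mice carried a floxed allele or received tamoxifen, is not given in the sources used here.

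Nearly all mitochondrial proteins are encoded in the nucleus. They enter through the TOM pore of the outer membrane and are then sorted: small TIM chaperones carry hydrophobic proteins across the intermembrane space, the TIM22 translocase inserts metabolite carriers into the inner membrane, and the TIM23 translocase takes proteins with a presequence to the matrix. An ATP-driven motor around the chaperone Hspa9 pulls these in, and the Hspd1-Hspe1 chaperonin folds them. Brown fat is among the tissues richest in mitochondria, and its thermogenic carrier, Ucp1, is itself an imported inner membrane protein.

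Library totals ran between 12751528 and 23866743 counts, and 29 of the 32 genes had enough counts to be tested among 14103 genes. Akt2 averaged 82.2 ± 6.03 CPM (read counts scaled to the library size) in KO at 22 °C and 232 ± 19.8 CPM in WT at 22 °C. At 30 °C it averaged 69.4 ± 10.7 CPM in KO and 204 ± 12.9 CPM in WT (SD, n = 4 each), and the lowest WT library lay above the highest KO library at both temperatures. Brown adipocyte markers were abundant, with Ucp1 between 1410 and 8760 CPM over the 16 libraries. Skeletal muscle markers (10 of 10 detected) took over 0.1% of the counts in 4 libraries: KO at 22 °C replicate 1 (0.644%), KO at 30 °C replicates 1 and 2 (0.116% and 0.399%) and WT at 30 °C replicate 2 (0.258%). In the other 12 libraries the share was at most 0.089%.

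Most of the import genes were higher at 22 °C than at 30 °C, in both genotypes. In KO, 16 of the 29 tested genes were called higher and 0 lower, where 13.7% of all genes tested were called higher and 13% lower. In WT, 23 of the 29 were called higher and 0 lower, where 20.4% of all genes were called higher and 17.8% lower. A gene was called when its Benjamini-Hochberg adjusted p from edgeR's quasi-likelihood test, over all genes, was below 0.05. The median log2 fold change of the 29 genes was 0.39 in KO and 0.61 in WT, and over all genes it was 0.02 in KO and -0.03 in WT. Every one of the 16 genes called in KO was also called in WT, which makes 16 of 16 KO calls and 16 of 23 WT calls. Libraries of 22 °C lay entirely above those of 30 °C for 20 genes in KO, where 17.7% of all genes did so, and for 21 genes in WT, where 18.4% did. These are bulk tissue values, in which more cells of a type and more RNA per cell cannot be told apart. The summed share of brown adipocyte markers moved with temperature as well: at 22 °C the KO libraries held 0.929% to 1.47% of their counts on them, and the WT libraries 0.84% to 1.4%. At 30 °C the KO libraries held 0.635% to 0.723% and the WT libraries 0.616% to 0.676%. Ucp1, which cold induces, made up most of that difference, with a mean of 7170 CPM at 22 °C and 1790 CPM at 30 °C in KO, and 6180 CPM at 22 °C and 1520 CPM at 30 °C in WT. The adipocyte marker Adipoq averaged 1240 CPM at 22 °C and 1200 CPM at 30 °C in KO, and 1060 CPM at 22 °C and 1070 CPM at 30 °C in WT. Plin1 averaged 1020 CPM at 22 °C and 940 CPM at 30 °C in KO, and 1240 CPM and 999 CPM in WT. Pparg averaged 334 CPM and 331 CPM in KO, and 357 CPM and 280 CPM in WT. The other listed markers also had higher means at 22 °C in both genotypes. With Ucp1 making up most of its change, the sum does not give the share of adipocytes, and whether that share changed was not tested. Endothelial markers (6 genes) took 0.0723% to 0.0984% of counts in KO and 0.0573% to 0.0759% in WT at 22 °C, with 0.109% to 0.123% in KO and 0.11% to 0.122% in WT at 30 °C. Macrophage markers (6 genes) took 0.00354% to 0.00489% in KO and 0.00323% to 0.00552% in WT at 22 °C, below the 0.00673% to 0.00763% in KO and 0.0062% to 0.00785% in WT at 30 °C. The part of these shares in the results was not tested. Without the 4 libraries with muscle, 10 of the 29 genes were called higher in KO and 22 in WT, where 6.66% of all genes were in KO and 17.1% in WT. The KO count was also 10 without replicate 4 of KO at 30 °C, without replicate 2 of KO at 22 °C or without replicate 4 of KO at 22 °C, beside 9.54%, 9.68% and 9.28% of all genes.

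**Figure D1:**
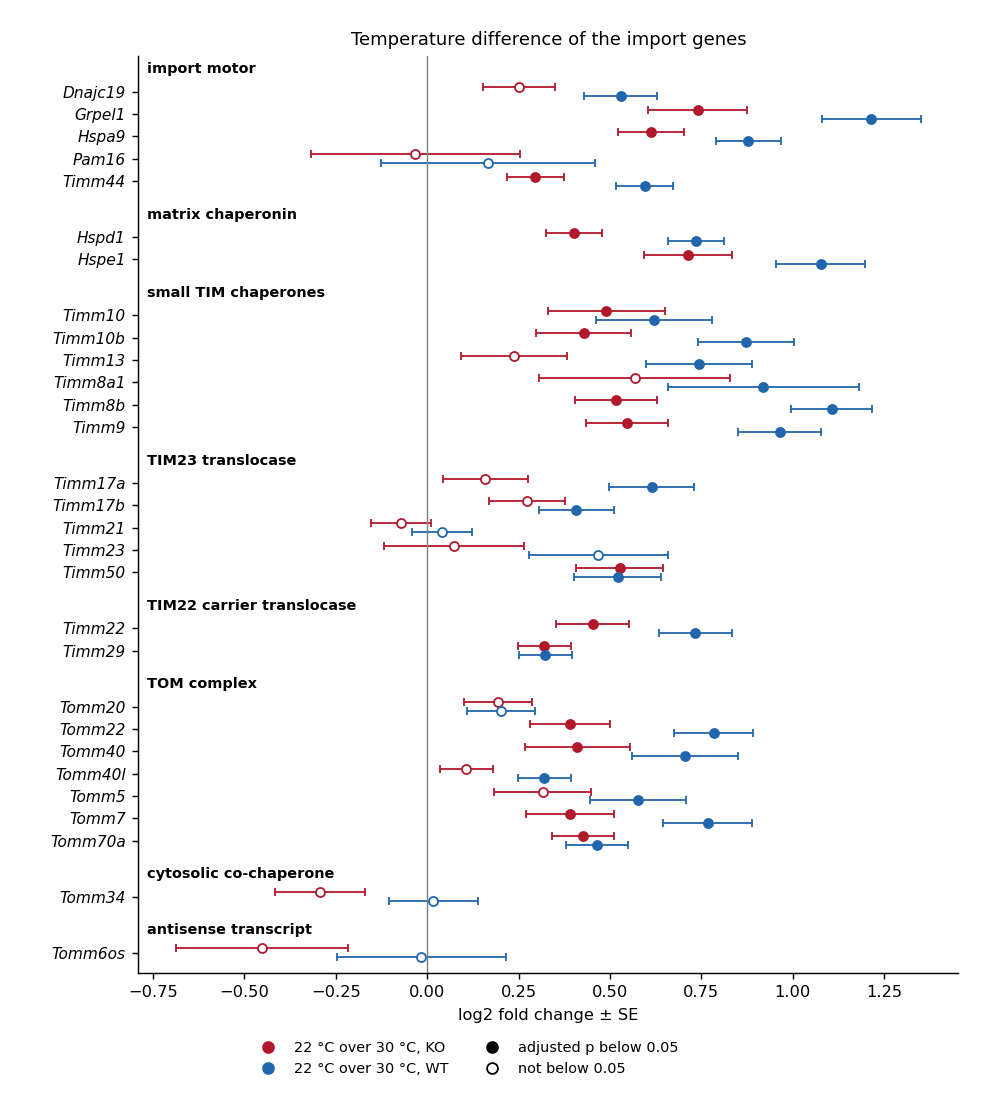
Log2 fold change between 22 °C and 30 °C for each of the 29 tested import genes, by role, in KO (red) and WT (blue). Points are edgeR estimates with their SE, and filled points have an adjusted p below 0.05: 16 in KO and 23 in WT, all to the right of 0. Tomm34 and the antisense Tomm6os lie lowest in KO.

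Together the 32 genes took 0.356 ± 0.0264% of all counts in KO at 22 °C and 0.372 ± 0.0457% in WT at 22 °C. At 30 °C they took 0.273 ± 0.00822% in KO and 0.265 ± 0.00929% in WT (SD, n = 4 each). The ranges at 22 °C, 0.321% to 0.384% in KO and 0.324% to 0.429% in WT, overlapped each other and lay above all 30 °C libraries, whose highest share was 0.282%. The exact 95% binomial interval of a single library, such as 0.2655% to 0.2707% for WT at 30 °C replicate 1, covers counting error only and is narrower than this spread. Transcripts encoded by the mitochondrial genome itself took 23.2% of counts in KO and 17.6% in WT at 22 °C, and 27.2% in KO and 24.9% in WT at 30 °C. With these left out of the denominator the import genes' share was 0.463% in KO and 0.451% in WT at 22 °C, so the order of KO and WT at 22 °C turned with the denominator, and 0.375% in KO and 0.353% in WT at 30 °C.

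Levels compared between genes are CPM per kilobase of exon. On this scale the machinery spanned a wide range. The motor chaperone Hspa9 was the highest member in KO and WT at 22 °C, at 339 ± 26.8 in KO and 394 ± 47.7 in WT. Timm13, Hspd1, Timm8b, Grpel1 and Tomm7 followed in WT at 22 °C at 150, 130, 119, 95.7 and 94.8, and the SDs of Timm13 (44.1) and Hspd1 (14.2) spanned the step between them. The pore Tomm40 stood at 19.7 in KO and 22.2 in WT at 22 °C. The lowest tested members were Timm23, Tomm6os and Pam16, with 1.86, 0.775 and 0.433 in WT at 22 °C. Timm23 is a core subunit of its translocase, and its low level cannot be read as such. It shares 1121 bases at 99.9% identity with Gm10273 and long stretches with several pseudogenes, among which reads may be lost or split. The same holds for Pam16, which shares 534 identical bases with Gm9803.

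**Figure D2:**
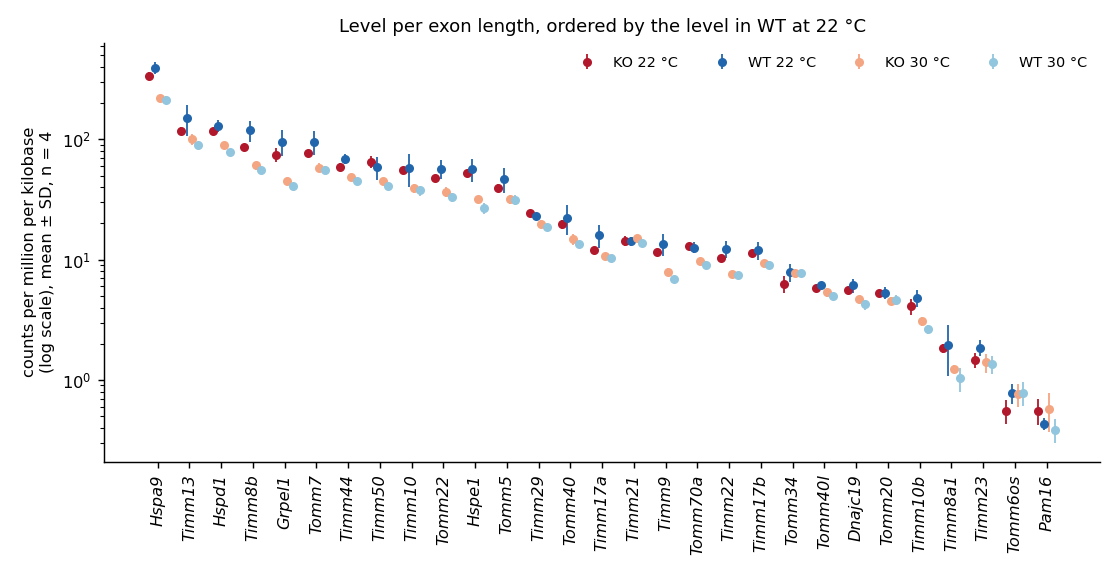
Mean level of each tested import gene in CPM per kilobase of exon (log axis) with its SD over 4 libraries, for KO and WT at 22 °C and KO and WT at 30 °C, ordered by WT at 22 °C. Hspa9 stands highest at 394 in WT at 22 °C, and Pam16 lowest at 0.433.

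At the outer membrane, 6 of the 7 tested TOM genes were called higher at 22 °C in WT and 4 in KO. Of all genes tested, 20.4% were called higher in WT and 13.7% in KO. All 7 TOM estimates were positive in both genotypes. Tomm22, the central receptor that organises the complex, had 75.9, 80.6, 78.6 and 81.2 CPM in the KO libraries at 22 °C, and 92.5, 118, 86.4 and 78.2 CPM in the WT libraries at 22 °C. At 30 °C it had 61, 52.9, 67 and 60.3 CPM in KO and 59.6, 48.7, 55.7 and 53.6 CPM in WT. Every library of 22 °C lay above every library of 30 °C in both genotypes, and the genotypes overlapped at each temperature. The log2 fold change of 22 °C over 30 °C was 0.39 (SE 0.109, adjusted p = 0.0147, edgeR) in KO. In WT it was 0.78 (SE 0.109, adjusted p = 4.37e-05, edgeR). Tomm40, the beta-barrel that forms the pore, had 79.7, 88.9, 90.2 and 97.4 CPM in KO and 102, 138, 89.5 and 72.5 CPM in WT at 22 °C. The 30 °C libraries held 68.4, 56.5, 72.1 and 71 CPM in KO and 60.9, 57.4, 62.5 and 65.4 CPM in WT, below all 22 °C libraries of the same genotype. It rose by 0.41 (SE 0.144, adjusted p = 0.0451) in KO and by 0.71 (SE 0.145, adjusted p = 0.00116) in WT on the log2 scale. Of the alternatives tried, 17 of 28 took the KO call of Tomm40 away, with adjusted p up to 0.24.

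Tomm20, the receptor for presequences, was the tested TOM gene called in neither genotype. It had 26.9, 24.9, 25.1 and 25.7 CPM in KO and 28.6, 28.6, 23.8 and 23.3 CPM in WT at 22 °C, against 22.8, 20.4, 23.8 and 22.7 CPM in KO and 22.4, 19.8, 24.1 and 24.3 CPM in WT at 30 °C. The KO libraries of the 2 temperatures did not overlap and the WT libraries did, yet the log2 fold changes were nearly the same, 0.19 in KO (adjusted p = 0.132) and 0.20 in WT (adjusted p = 0.0952), and neither was called. Tomm20 shares 435 bases at 99.5% identity with the pseudogene Gm14494, which had 165 counts in all. Tomm70a, the receptor for carrier precursors, rose by 0.43 in KO and 0.47 in WT. The small subunits Tomm5 and Tomm7, which help assemble and stabilise the pore, rose in WT by 0.58 and 0.77. Tomm7 rose by 0.39 in KO, and Tomm5 was at 0.32 without a call there (adjusted p = 0.0873). Tomm40l, a paralog of Tomm40, rose by 0.32 in WT and was at 0.11 in KO without a call, and 64.3% of its exon bases overlap Nr1i3 on the opposite strand, so reads of the pair cannot be told apart where counting ignored strand. The cytosolic co-chaperone Tomm34 was at -0.29 in KO (adjusted p = 0.09) and 0.02 in WT.

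The small TIM chaperones of the intermembrane space form ring-shaped hexamers, Timm9 with Timm10 and Timm8a1 with Timm13. All 6 tested genes were called higher at 22 °C in WT, where 20.4% of all genes tested were. In KO 4 of the 6 were called higher, beside 13.7% of all genes, and all 6 estimates were positive in both genotypes. On the log2 scale the median rise was 0.90 for WT and 0.50 for KO. Timm8b is a paralog of Timm8a1 (chromosome 9, 50603910 to 50605320, plus strand, GRCm38), and 15.6% of its exon bases overlap Nkapd1 on the opposite strand. It had 42.5, 47.4, 46.8 and 43.1 CPM in KO and 66.8, 76.5, 53.9 and 49.9 CPM in WT at 22 °C. At 30 °C it had 32.9, 28.1, 31.4 and 33.3 CPM in KO and 28.9, 27.1, 30.1 and 28.7 CPM in WT. It was the tested import gene in which the KO libraries at 22 °C all lay below the WT libraries at 22 °C, while at 30 °C the genotypes overlapped. From 30 °C to 22 °C its log2 level rose by 0.52 (SE 0.112, adjusted p = 0.00315, edgeR) in KO, or 1.43-fold. In WT it rose by 1.11 (SE 0.112, adjusted p = 2.31e-06, edgeR), or 2.15-fold.

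Timm9, the partner of Timm10, rose by 0.55 in KO and 0.96 in WT, and Timm10 rose by 0.49 in KO and 0.62 in WT. The KO call of Timm10 was lost in 14 of the 28 alternatives, with adjusted p up to 0.238. Timm10b, which docks the Timm9-Timm10 ring on TIM22, rose by 0.43 in KO and 0.87 in WT. Timm13 rose by 0.74 in WT and was at 0.24 in KO (adjusted p = 0.237). Timm8a1, a low gene with 1.86 to 4.55 CPM in WT at 22 °C, rose by 0.92 in WT and was at 0.57 in KO (adjusted p = 0.119). It shares 612 identical bases with the pseudogene Gm9797. Its WT call was lost without the libraries with muscle and with a clock term in the fit.

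Promoter letters are shown for Timm8b and Timm9, and further below for Hspe1 and Hspd1, because their windows held motif matches. Other genes with large rises, such as Grpel1 and Hspa9, are not shown, so the lines do not link the rise to a motif. In the RefSeq window of 300 bases around the start (250 before, 50 after), on GRCm38.p6, motifs were searched on both strands, and 28 of the 32 genes had such a window. The line for Timm8b covers chr9:50603781-50603900 on the plus strand and ends at the base before the RefSeq start. Its capitals mark a site of the estrogen-related receptors, TCAAGGTCA, at -96, and an ETS site of the GABP factor, CCGGAAG, at -12. The line for Timm9 covers chr12:71136846-71136905 on the minus strand, and its capitals mark a heat shock element (TTC, GAA and TTC, each 2 bases apart) at -202.
Timm8b: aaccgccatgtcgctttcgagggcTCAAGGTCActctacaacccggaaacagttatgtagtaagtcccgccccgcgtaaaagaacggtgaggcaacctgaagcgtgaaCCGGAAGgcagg
Timm9: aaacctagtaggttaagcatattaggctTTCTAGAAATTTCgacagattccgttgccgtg
The estrogen-related receptor letters occurred in 1 of the 25 tested import genes with a window, Timm8b, and in 0.365% of the 10699 tested genes with one. The GABP letters occurred in 11 of 25 (44%) and in 19.1% of tested genes, and those of nuclear respiratory factor 1 (GCGC, any base, then TGCGC) in 4 of 25 (16%) and in 11% of tested genes. The letters TGATGNAA, part of the composite site of the stress factors Atf4 and Chop, were in 0 of 25 windows and in 2.79% of tested genes. A match describes letters in the window and not binding.

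The TIM22 pathway had 2 members. Timm22, the carrier insertase itself, had a log2 fold change of 0.45 (SE 0.0999, adjusted p = 0.00361, edgeR) in KO and 0.73 (SE 0.0998, adjusted p = 3.46e-05) in WT. Timm29, which in human cells links it to the TOM complex, rose by 0.32 in both genotypes (adjusted p = 0.00419 in KO and 0.00226 in WT).

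The TIM23 translocase moved unevenly. Timm17a and Timm17b are paralogs, each a subunit of the TIM23 translocase. Timm17a had 85.6, 98.5, 97.8 and 95.5 CPM in KO and 139, 156, 97.3 and 109 CPM in WT at 22 °C. In the 30 °C libraries it had 90.7, 79.6, 85.2 and 82.6 CPM in KO and 81.8, 78.6, 85.5 and 81.9 CPM in WT. Replicates 1 and 2 of WT at 22 °C stood far above the rest, and the KO libraries of the temperatures overlapped. It rose by 0.61 in WT (SE 0.116, adjusted p = 0.000597) and was at 0.16 in KO (SE 0.116, adjusted p = 0.326). Timm17b had 27.9, 30.8, 27.3 and 30.2 CPM in KO and 30.6, 37.7, 29.8 and 25 CPM in WT at 22 °C, against 23.1, 23.8, 24.2 and 24.9 CPM in KO and 23.5, 22.6, 21.2 and 25.3 CPM in WT at 30 °C. The KO libraries of the temperatures did not overlap, while WT at 22 °C replicate 4 fell within the 30 °C range. Its rise was 0.41 in WT (adjusted p = 0.00537), with 0.27 in KO (adjusted p = 0.0613).

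Timm50, the receptor of the complex, had 147, 187, 174 and 191 CPM in KO and 162, 203, 134 and 131 CPM in WT at 22 °C. The values at 30 °C were 128, 113, 121 and 124 CPM in KO and 106, 114, 109 and 110 CPM in WT, below every 22 °C library of the same genotype. Its rise was 0.53 (SE 0.12, adjusted p = 0.00447) in KO and 0.52 (SE 0.12, adjusted p = 0.00278) in WT. Timm21, which in yeast ties TIM23 to TOM and to respiratory complexes, was at -0.07 in KO and 0.04 in WT, and was not called. Timm23 had 2.38, 3.06, 2.27 and 2.79 CPM in KO and 4.04, 3.26, 2.94 and 3.08 CPM in WT at 22 °C, and 3.11, 2.39, 2.04 and 2.45 CPM in KO and 2.85, 2.58, 1.84 and 2.36 CPM in WT at 30 °C. It was not called, with 0.07 in KO and 0.47 in WT (adjusted p = 0.0606), although the WT libraries of the temperatures did not overlap.

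The import motor held the member with the lowest p in KO, Hspa9, and the member with the largest rise, Grpel1. Hspa9 is the matrix Hsp70 that pulls the chain, and it had 1320, 1490, 1430 and 1600 CPM in KO and 1960, 1760, 1550 and 1520 CPM in WT at 22 °C. At 30 °C its level was 955, 960, 973 and 937 CPM in KO and 878, 902, 1020 and 894 CPM in WT. Grpel1, its nucleotide exchange factor (chromosome 5, 36464998 to 36474080, plus strand), had 218, 274, 264 and 296 CPM in KO and 368, 438, 283 and 263 CPM in WT at 22 °C. Both genes stood higher in every 22 °C library than in any 30 °C library, and at 22 °C the genotypes overlapped. For Grpel1 the 30 °C libraries held 159, 146, 156 and 169 CPM in KO and 150, 133, 151 and 148 CPM in WT. Hspa9 rose 1.53-fold in KO (log2 0.61, SE 0.0898, adjusted p = 0.000179, edgeR) and 1.84-fold in WT (log2 0.88, SE 0.0901, adjusted p = 2.5e-06). Grpel1 rose 1.67-fold in KO (log2 0.74, SE 0.135, adjusted p = 0.000965) and 2.32-fold in WT (log2 1.22, SE 0.136, adjusted p = 5.65e-06), which was the largest estimate among the 29 genes in both genotypes. Of the exon bases of Grpel1, 11.65% overlap Tada2b on the opposite strand, where reads cannot be told apart if counting ignored strand.

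Timm44 tethers Hspa9 to the channel. It had 193, 223, 217 and 234 CPM in KO and 259, 283, 235 and 229 CPM in WT at 22 °C, and 181, 176, 177 and 173 CPM in KO and 166, 169, 165 and 166 CPM in WT at 30 °C. The libraries of the temperatures did not overlap in either genotype. The rise was 0.30 (SE 0.0778, adjusted p = 0.0109) in KO and 0.60 (SE 0.0779, adjusted p = 2.46e-05) in WT. The J-protein Dnajc19 rose by 0.53 in WT and was at 0.25 in KO (adjusted p = 0.0731). Pam16, the J-like regulator of the motor, had only 304 counts over 16 libraries and was at -0.03 in KO and 0.17 in WT.

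The matrix chaperonin rose in both genotypes. Hspd1 (Hsp60) had 315, 304, 307 and 319 CPM in KO and 382, 355, 345 and 293 CPM in WT at 22 °C. Its 30 °C values were 231, 240, 227 and 244 CPM in KO and 210, 196, 211 and 209 CPM in WT. Its lid, Hspe1 (Hsp10), had 80.1, 80.7, 74 and 76.4 CPM in KO and 85.1, 107, 77.9 and 63.2 CPM in WT at 22 °C. For both genes the 22 °C libraries lay above all 30 °C libraries, and the KO libraries at 22 °C fell inside the WT range. At 30 °C Hspe1 had 45.9, 48.2, 47 and 48.9 CPM in KO and 44.8, 35.4, 37 and 40.6 CPM in WT. Here every KO library lay above every WT library, and the same was true of Hspd1. From 30 °C to 22 °C Hspd1 rose 1.32-fold in KO (log2 0.40, SE 0.0766, adjusted p = 0.00129, edgeR). In WT it rose 1.67-fold (log2 0.74, SE 0.0768, adjusted p = 2.84e-06, edgeR). Hspe1 rose 1.64-fold in KO (log2 0.71, SE 0.12, adjusted p = 0.000523) and 2.11-fold in WT (log2 1.08, SE 0.121, adjusted p = 5.53e-06).

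Hspd1 and Hspe1 stand head to head on chromosome 1, and the longest Hspd1 transcript starts 107 bases from Hspe1 (GENCODE M21, GRCm38). Between them lies a heat shock element that both promoter windows contain. The line below shows chr1:55088053-55088082 on the plus strand, the strand of Hspe1, with the element at 55088059 to 55088076 in capitals.
Hspe1 and Hspd1: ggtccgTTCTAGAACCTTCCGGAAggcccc
The capitals hold 2 overlapping matches to the heat shock element letters, 1 on each strand, and 2 overlapping matches to CCGGAAG fall on the same bases, the last ending 1 base beyond. Heat shock element letters were in 3 of the 25 tested import genes with a window, Hspd1, Hspe1 and Timm9, of which the first pair share 1 element, and in 0.579% of tested genes. The annotated exons of the pair overlap by 112 bases. Hspd1 shares 1722 bases at 99% identity with Hspd1-ps3, which had 123 counts in all. Hspe1 shares 515 bases at 99% identity with AC117239.2, which is not among the counted genes, so reads of Hspe1 may be lost or split.

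**Figure D3:**
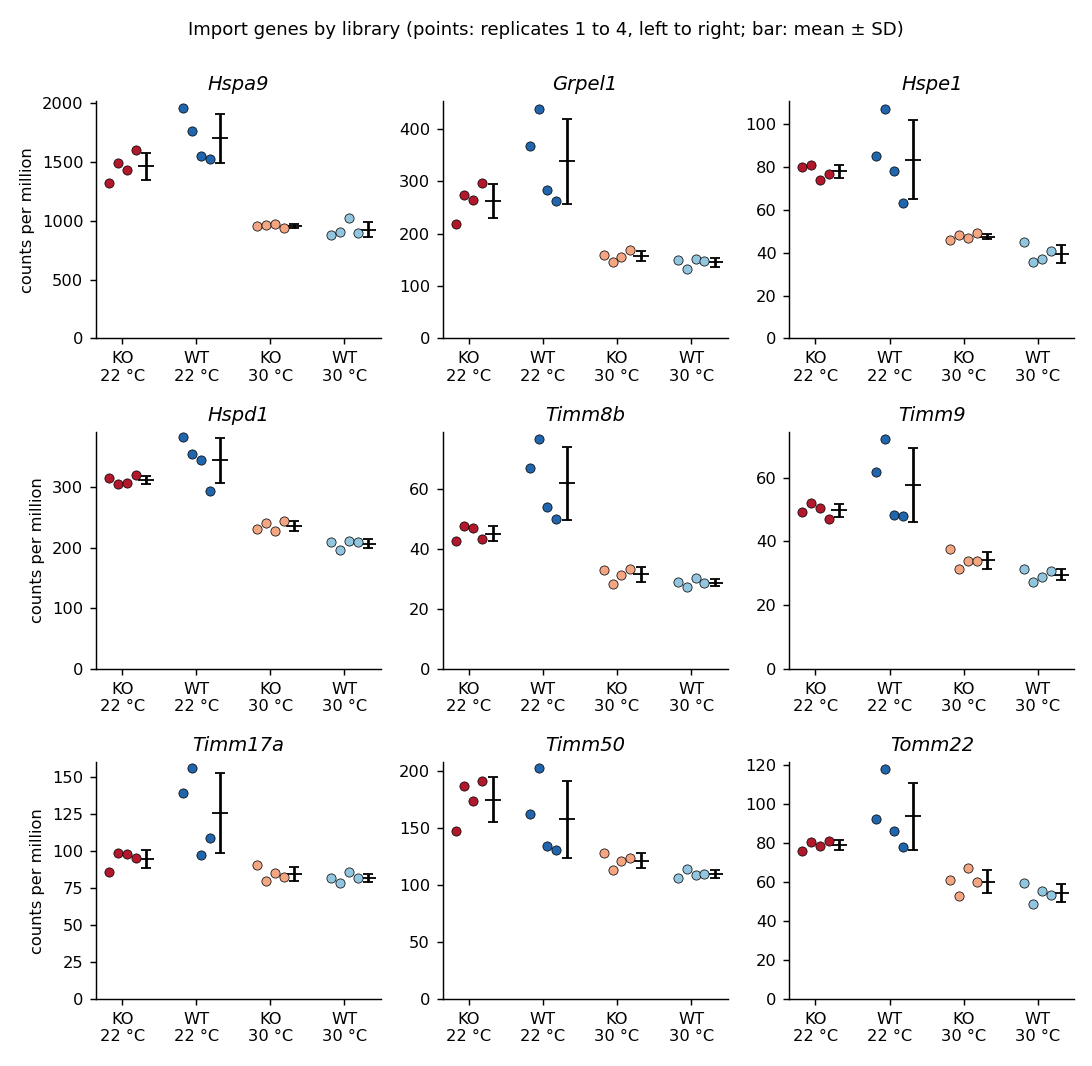
CPM in each library for 9 import genes in KO at 22 °C, WT at 22 °C, KO at 30 °C and WT at 30 °C. Points are replicates and bars show the mean with its SD (n = 4). WT at 22 °C has the widest spread in most panels, and Timm8b is the panel in which KO lies wholly below WT at 22 °C.

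Between genotypes at 22 °C, 2 of the 29 genes were called lower in KO and 0 higher, where 9.98% of all genes tested were called lower and 7.44% higher. Timm8b averaged 45 ± 2.5 CPM in KO and 61.8 ± 12.2 CPM in WT (SD, n = 4 each; log2 -0.46, SE 0.111, adjusted p = 0.0108, edgeR). Timm17a averaged 94.4 ± 5.96 CPM in KO and 125 ± 27.2 CPM in WT (log2 -0.41, SE 0.116, adjusted p = 0.0232), and its libraries overlapped. The Timm17a call was lost without replicate 1 of KO at 22 °C (log2 -0.38, adjusted p = 0.0602), replicate 1 of WT (log2 -0.35, adjusted p = 0.0583) or replicate 2 of WT (log2 -0.29, adjusted p = 0.061). Timm8b was the 1 gene whose groups did not overlap, where 9.78% of all genes lay wholly lower in KO. The share of import genes called was thus near or under the background. Their log2 fold changes were nonetheless mostly negative, 24 of 29 with a median of -0.21, where 47.6% of all genes were negative with a median of 0.02. Timm50 (0.15) and Timm29 (0.09) were among the 5 positive ones. Without the 4 libraries with muscle 0 of the 29 genes were called by edgeR, with a median of -0.16, and 6.16% of all genes were called lower. In a fit of only the KO and WT libraries at 22 °C 0 were called as well, with a median of -0.21, and 3.44% of all genes were called lower. On all libraries DESeq2 called 5, all lower, where it called 13.1% of all genes lower. On the same libraries limma-voom with library quality weights called 3, of which Timm50 was higher, and 14.2% of all genes in either direction. Its median over the 29 genes was -0.0956 with 19 negative, and Timm17a was not called. At an unadjusted p below 0.05, 10 of the 29 passed, a share close to the 33.9% of all genes that did.

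The spread within WT at 22 °C bears on these values. The median coefficient of variation of the 29 genes was 6.7% in KO and 17.4% in WT at 22 °C, and 7.48% in KO and 7.15% in WT at 30 °C. Over all genes tested it was 13.1% in KO and 19% in WT at 22 °C, and 11.1% in KO and 10.1% in WT at 30 °C, so WT at 22 °C was the most spread group there too. Of the 29 genes 22 were highest in replicate 2 of WT at 22 °C, where 33.4% of all genes were, and 21 were lowest in replicate 4. Replicate 2 also had the lowest share of mitochondrially encoded transcripts, 12.8% of counts. Without replicate 4 of WT at 22 °C, 11 import genes were called lower in KO, where 12.2% of all genes were, among them Grpel1 (-0.46), Hspa9 (-0.27), Hspd1 (-0.21), Timm22 (-0.34) and Tomm7 (-0.39). Without replicate 2 the median over the 29 genes was -0.09 and 18 of 29 were negative.

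Clock genes also stood far apart between the same groups. The log2 CPM of Dbp, an output of the circadian clock, minus that of Arntl, a clock activator that peaks in antiphase to it, averaged -2.74 ± 0.53 in KO and 0.67 ± 1.08 in WT at 22 °C. It averaged -0.67 ± 0.79 in KO and -0.13 ± 0.44 in WT at 30 °C (SD, n = 4 each). Within WT at 22 °C it was 0.91, 1.79, 0.79 and -0.81 in replicates 1 to 4, so the highest and lowest libraries were those in which most import genes were highest and lowest. With this difference as a term in the fit, 0 of the 29 genes were called between KO and WT at 22 °C by edgeR, where 0.787% of all genes were still called in either direction. Of the import genes 24 of 29 were then positive, and the median was 0.115 on the log2 scale. Timm8b was at -0.05 and Timm17a at 0.02. The hour of tissue collection is not given in the sources used here, and the KO range at 22 °C (-3.48 to -2.22) lay below the WT range, so genotype and clock phase cannot be told apart there.

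At 30 °C, 0 of the 29 genes were called between KO and WT by edgeR, DESeq2 or limma-voom, and 0.0425% of all genes tested were called by edgeR in either direction. At an unadjusted p below 0.05, 2 passed, Hspd1 (log2 0.19, SE 0.0765) and Hspe1 (log2 0.27, SE 0.12), with adjusted p = 0.999 for each, and 4.23% of all genes passed. The direction was upward in KO in 26 of 29 genes, with a median of 0.12, where 54.1% of all genes were positive with a median of 0.02. The KO libraries lay wholly above the WT libraries for Hspd1, Hspe1, Timm10b and Timm44, 4 of 29, where 3.36% of all genes did.

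**Figure D4:**
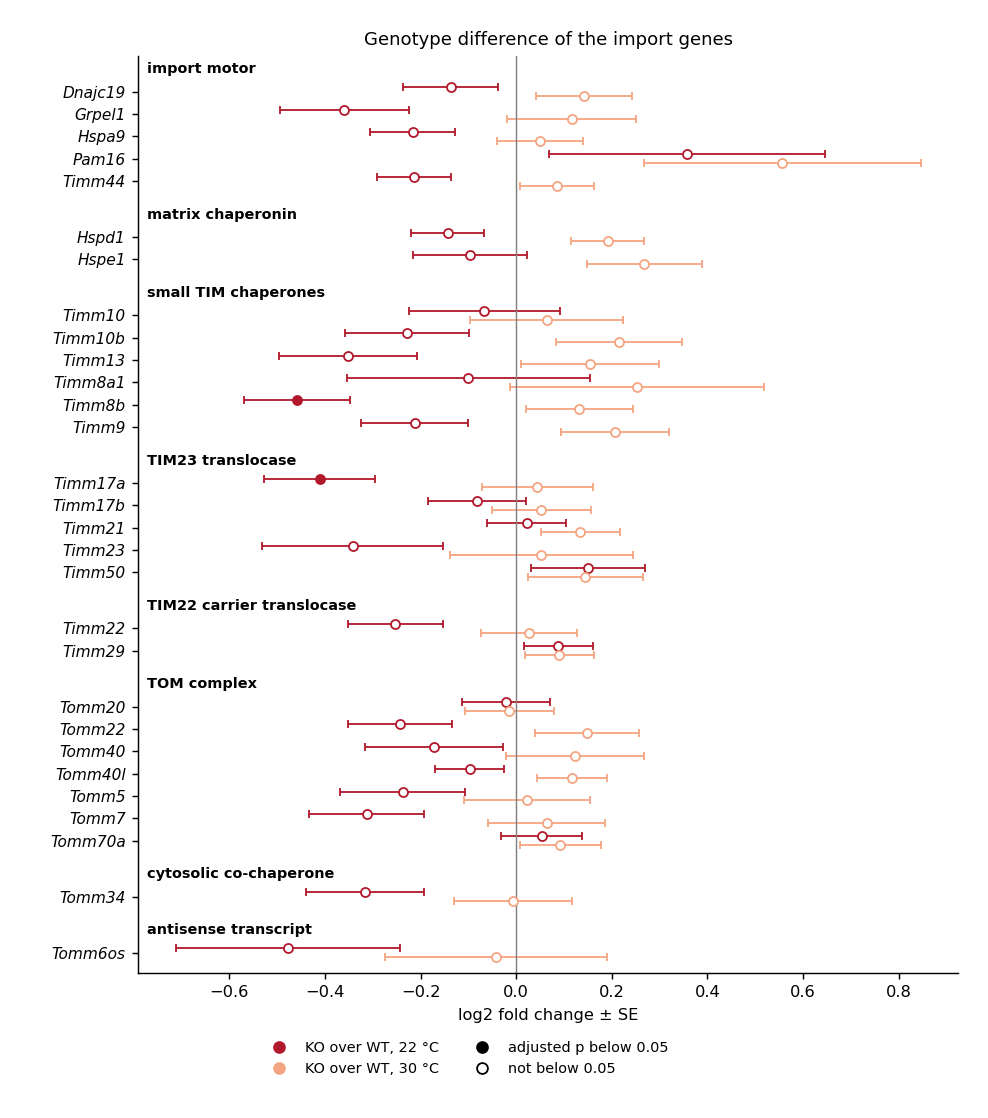
Log2 fold change between KO and WT for each tested import gene at 22 °C (red) and 30 °C (orange), with SE. Filled points have an adjusted p below 0.05, which holds for Timm8b and Timm17a at 22 °C. Most 22 °C points lie left of 0 and most 30 °C points right of it.

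Whether the temperature difference itself differed between genotypes was tested as an interaction, the rise in KO less the rise in WT. By edgeR 0 of the 29 genes were called, where 2.33% of all genes tested were called lower and 0.737% higher. At an unadjusted p below 0.05, 11 passed, where 20.8% of all genes did. DESeq2 called 3 of the 29 and limma-voom 2, all lower, where they called 5.35% and 4.81% of all genes lower. With edgeR 3 were called lower without replicate 4 of WT at 22 °C and 2 without replicate 3, beside 5.18% and 2.65% of all genes. The estimate was negative for 28 of 29 genes, with a median of -0.30, and 49.4% of all genes were negative with a median of 0.01. Timm8b was nearest to a call (-0.59, SE 0.158, adjusted p = 0.0524), followed by Hspd1 (-0.33, SE 0.108, adjusted p = 0.0989) and Timm17a (-0.45, SE 0.164, adjusted p = 0.13). Timm50 (0.01), Timm29 (-0.00246), Tomm20 (-0.01) and Tomm70a (-0.04) had estimates near 0. Their 95% intervals, -0.36 to 0.37 for Timm50, -0.22 to 0.22 for Timm29, -0.29 to 0.28 for Tomm20 and -0.30 to 0.22 for Tomm70a, do not show that the genotypes responded alike. With the clock term the median was -0.02, and 17 of 29 were negative. Both temperature comparisons and both genotype comparisons use the same 16 libraries, so the high and spread WT libraries at 22 °C enter the WT rise, the KO difference at 22 °C and the interaction alike.

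Other mitochondrial genes, listed by function, were also called higher at 22 °C in larger numbers than lower. Of all genes tested, 13.7% were called higher and 13% lower at 22 °C in KO, and 20.4% and 17.8% in WT. Between genotypes at 22 °C, 9.98% were called lower in KO and 7.44% higher. Of 20 further import genes outside the rule (presequence peptidases, the SAM complex, the disulfide relay), 7 were called higher and 1 lower in KO. In WT 17 were called higher, and 9 were called lower in KO than in WT at 22 °C. Of the 20 temperature estimates, 17 were positive in KO and 20 in WT. Pmpcb, a subunit of the peptidase that cuts off presequences, rose by 0.31 in KO and 0.90 in WT and was called in the interaction (-0.59, SE 0.139, adjusted p = 0.0336, edgeR). The outer membrane insertase Mtch2 rose by 0.76 in KO and 1.23 in WT. A list of 12 genes held mitochondrial proteases, matrix chaperones and Atf5, a transcription factor linked to the mitochondrial unfolded protein response. Of these 12, 5 were called higher in KO and 10 in WT, with 9 and 12 estimates positive. Of these genes 6 were called lower in KO than in WT at 22 °C. Atf5 rose by 0.77 in KO and 1.39 in WT. It was lower in KO than in WT at 22 °C (log2 -0.81, SE 0.199, adjusted p = 0.0123, edgeR).

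The same comparison was made for the genes that shape cristae and carry out respiration, beside the same shares of all genes. Of 8 genes of the MICOS cristae complex and Opa1, 3 were called higher in KO and 8 in WT. All 8 estimates were positive in both genotypes. At 22 °C 5 were called lower in KO than in WT, among them Chchd3 (log2 -0.47, adjusted p = 0.00144, edgeR). Of 81 nuclear-encoded respiratory chain subunits, 28 were called higher and 4 lower in KO, and 73 higher and 2 lower in WT. In each genotype 75 estimates were positive. Between genotypes at 22 °C, 34 were called lower and 1 higher in KO. Of 76 mitochondrial ribosomal proteins, 41 were called higher and 1 lower in KO, and 70 higher in WT. Positive estimates numbered 71 in KO and 75 in WT. At 22 °C 17 were called lower in KO than in WT. Mrpl50 rose by 0.46 in KO and 1.37 in WT, and was called in the interaction (-0.92, SE 0.122, adjusted p = 0.000625). The median log2 fold change of the import genes at 22 °C over 30 °C was 0.39 in KO, above those of the respiratory (0.26) and ribosomal (0.29) genes. In WT it was 0.61, below theirs (0.71 and 0.67). These differences between lists were not tested. Most cytosolic heat shock chaperones were not called: 1 of 11 was called higher in KO and 1 in WT, Hspa4 in both (0.32 and 0.47). The list medians were -0.11 in KO and -0.03 in WT.

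**Figure D5:**
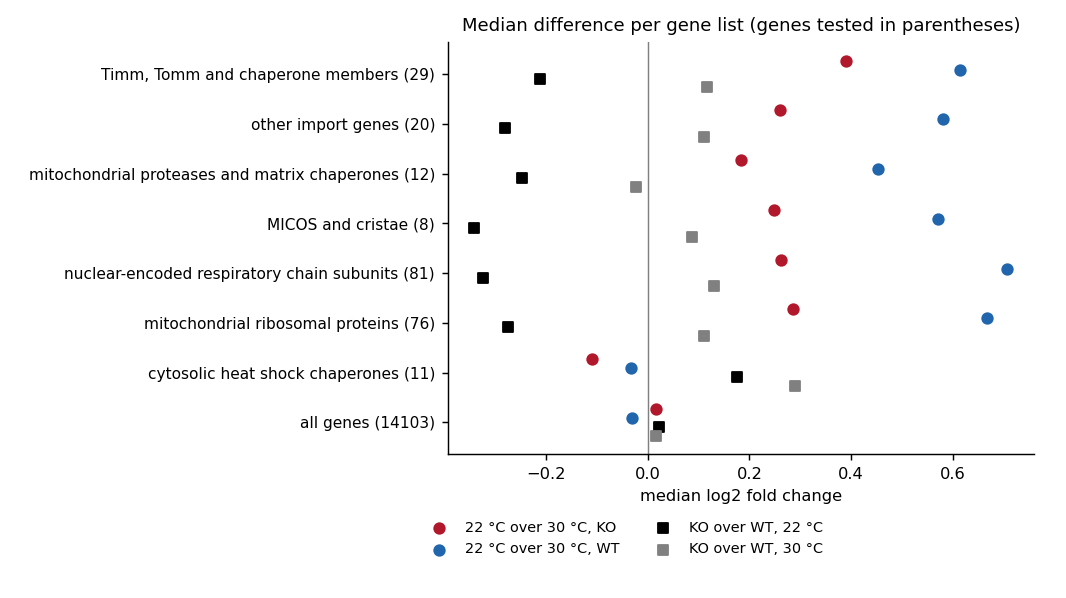
Median log2 fold change of each gene list, with the number of genes tested. Circles show 22 °C over 30 °C (KO red and WT blue). Squares show KO over WT (22 °C black and 30 °C grey). The mitochondrial lists lie between 0.18 and 0.71 with temperature and between -0.21 and -0.34 for KO against WT at 22 °C, while the cytosolic heat shock chaperones lie near the value of all genes with temperature.

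Of the 32 genes, 3 had too few counts to be tested. Timm8a2, a paralog of Timm8a1, had 5 counts over the 16 libraries, and Tomm20l, a relative of Tomm20, had 2. Tomm6, a small TOM subunit, had 135 counts, between 6 and 15 in each library. Of the exon bases of Tomm6, 76% also belong to Gm21981 on the same strand and 19.4% to its antisense Tomm6os on the other, so its low count cannot be read as a low level. Tomm6os itself was at -0.45 in KO and -0.02 in WT for 22 °C over 30 °C and was not called. In all, 6 tested genes were called in neither temperature comparison: Pam16, Timm21, Timm23, Tomm20, Tomm34 and Tomm6os.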

How the data were processed

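The authors deposited a table of raw read counts per Ensembl gene, 1 column for each of 16 libraries, not normalised. FastQC 0.10.1, STAR 2.4.2a and edgeR 3.14.0, with builds GRCm38 and mm10, are named in the submitters' processing notes, with no role given. Which program counted the reads, with which annotation and strand setting, is not given in the sources used here. The labels number samples without naming animals, so a p-value here covers the spread between numbered samples, which may be technical.

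Symbols matched 37607 of 38924 identifiers. All libraries entered 1 quasi-likelihood fit (R 4.3.3, edgeR 4.0.16, robust, TMM factors, filterByExpr minimum count 10), with 4 group terms, 12 residual degrees of freedom and Benjamini-Hochberg adjustment over 14103 genes. CPM use TMM-adjusted library sizes, and per-kilobase levels the merged GENCODE M21 exon length. SE is the log2 fold change divided by the root of F. The fit was tested on simulated counts. Alternatives were upper-quartile or relative-log-expression factors, factors without the 50 most abundant genes, no filter, a stricter filter (CPM 1 in 4 libraries, mean count 20), DESeq2 1.42.0, limma-voom (limma 3.58.1), only the groups compared, a replicate block, muscle and clock covariates, leaving out 4 libraries with muscle markers above 0.1% of counts, and leaving out each library. Limma-voom was run with library quality weights throughout. Promoter sequences are from RefSeq (GRCm38.p6).

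Members and lists were chosen with earlier results of these data known. By the rule for named genes, every tested member is named. Values per library are given for core subunits, for members called between genotypes and for the 3 lowest p in each temperature comparison. From each other list at most 3 genes are named.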

Additional observations from a re-analysis of the deposited data

Results flagged for a closer look

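Among 116 groups of 4 libraries (29 genes in 4 groups), 10 had 1 library far from the other 3 by Dixon's criterion, and chance gives about 1 in 20. In WT at 22 °C, replicate 2 stood apart for Timm13 (296 CPM, the next 188 CPM) and Tomm40l (33.3 CPM, the next 31.4 CPM). In KO at 30 °C, replicate 1 stood apart for Timm10b (12.4 CPM) and replicate 2 for Tomm5 (23.8 CPM). In WT at 30 °C, replicate 1 stood apart for Timm8a1 (1.96 CPM), replicate 2 for Grpel1 (133 CPM) and Hspd1 (196 CPM), replicate 3 for Hspa9 (1020 CPM) and Timm22 (22.9 CPM), and replicate 4 for Dnajc19 (14.8 CPM).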

How the results depend on the processing

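The count of import genes called in WT between the temperatures was 22 to 24 under every alternative run, all higher. Of 14103 genes, 2187 were called higher in WT with upper-quartile factors and 3118 with DESeq2. In KO the count of import genes was 10 to 22 with 1 library left out. It was 10 without KO at 30 °C replicate 4, KO at 22 °C replicate 2 or KO at 22 °C replicate 4. The shares of all genes called higher there were 9.54%, 9.68% and 9.28%. The count was 22 without WT at 22 °C replicate 2 (21 higher, and Tomm34 lower), beside 2466 of 14299 genes higher and 2133 lower. The KO count was 10 without the libraries with muscle, beside 6.66% of all genes called higher. With upper-quartile factors it was 11 (10 higher, and Tomm34 lower), beside 1177 of 14103 genes higher and 2519 lower. Tomm34 was also called lower with limma-voom and without KO at 22 °C replicate 1. Upper-quartile factors moved the median of all genes to -0.08 in KO and -0.13 in WT. Between KO and WT at 22 °C the count was 2 to 11 with 1 library left out. The 11 came without WT at 22 °C replicate 4, beside 12.2% of all genes called lower. DESeq2 called 5, beside 13.1% of all genes lower. The count was 0 in the fit of only those groups, without the libraries with muscle and with the clock term. Beside these stood 3.44% and 6.16% of all genes called lower, and with the clock term 0.787% in either direction. With the clock term Timm17a was at 0.0167 and so turned its sign. At 30 °C the count was 0 throughout, leaving out libraries included (0 to 0). The interaction had 0 to 3 calls with 1 library left out (2 without WT at 22 °C replicate 3, 3 without replicate 4). It had 1 with the stricter filter, 3 with DESeq2 and 2 with limma-voom. Over all genes, 2.65% and 5.18% were called lower without those replicates. The other settings called 338 of 12398 genes, 5.35% and 4.81% lower, in that order. Causes of these shifts were not tested. The summed share without mitochondrially encoded counts was 0.463%, 0.451%, 0.375% and 0.353% in KO at 22 °C, WT at 22 °C, KO at 30 °C and WT at 30 °C. The deviations of same-numbered libraries from their group means had correlations from -0.54 to 0.478. With 4 libraries per group these values do not settle whether the numbers pair them. A replicate block gave 14 calls in KO and 24 in WT between temperatures, beside 1692 and 2713 of 14103 genes called higher. It gave 2 between genotypes at 22 °C, beside 1168 genes called lower. At 30 °C it gave 0, beside 3 genes higher and 2 lower. In the interaction it gave 0, beside 43 genes higher and 155 lower. Depth limits Timm8a1, Timm23, Pam16 and Tomm6os most, which had 304 to 711 counts over 16 libraries.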
